A study of Mus musculus with 41 samples.

Results

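The genes described here are 7 that mark or drive antibody-secreting plasma cells: Prdm1, Xbp1, Irf4 and Ell2, which act in the nucleus, and Sdc1, Slamf7 and Epcam, whose proteins sit on the cell surface. They were taken by symbol from the 50763 genes of the deposited count table, and all 7 were also found in the TPM table. RNA came from splenic B cells of mice aged 3 to 5 months, sorted into 6 subsets. Plasma cells were taken as B220+ and CD138+, Immature cells as B220+, CD93+ and CD138-, and the rest as B220+ without CD93 and CD138: germinal center cells (GC) with GL7 and FAS, and Follicular and MarginalZone cells without them, both CD21+, the former also CD23+. The gate of age-associated B cells (ABC) is not given in the labels. Each subset was taken from wild-type (wt) mice and from mice of the genotype Mek1flox/flox Mek2+/- Tg+/Vav1-icre, labelled 1Mek2, in which Cre driven by Vav1 acts in blood cells generally and not in B cells alone. The products of Mek1 and Mek2 phosphorylate and so switch on ERK. The series addresses loss of their function, and the genotype as written keeps a wild-type allele of Mek2.

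Immature, ABC, MarginalZone and Plasma cells gave 3 libraries per genotype, GC and Follicular cells 4, which makes 40 libraries from 16 animals. Another Immature library, labelled 1Mek2 with a name that reads Mek1ff, was left out. The GC library of the same animal, whose name also reads Mek1ff, is labelled wt and was kept as wt replicate 4. Total counts per library ran from 7883989 to 34925667. The targeted genes did not clearly separate the genotypes: Map2k1 (Mek1) differed by a log2 fold change of -0.32 ± 0.18 (SE) averaged over the subsets, with an adjusted p of 0.34 (limma), and Map2k2 (Mek2) by 1.10 ± 0.30, higher and not lower, with an adjusted p of 0.018. The text therefore writes "libraries labelled 1Mek2". By the Y-linked gene Ddx3y, 1 wt animal and 2 labelled 1Mek2 were male, and sex was not a term in any fit.

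IRF4 and BLIMP-1, the protein of Prdm1, are the transcription factors that commit an activated B cell to antibody secretion. BLIMP-1 silences the B cell program, and XBP1, made in its active form after its mRNA is spliced by the stress sensor IRE1, enlarges the endoplasmic reticulum and the secretory machinery. ELL2 is an elongation factor that favours the secreted form of the immunoglobulin heavy chain mRNA. Syndecan-1 (CD138), the protein of Sdc1, is the usual surface marker of plasma cells and set the Plasma gate here. SLAMF7 is a receptor of the SLAM family found on plasma cells and natural killer cells, and EpCAM is an adhesion molecule best known from epithelia.

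On GRCm39, Prdm1 lies on chromosome 10 (44313170 to 44404579, minus strand), Xbp1 on chromosome 11 (5470641 to 5475993, plus), Irf4 on chromosome 13 (30933191 to 30950965, plus) and Ell2 on the same chromosome (75855603 to 75920480, plus). Sdc1 lies on chromosome 12 (8821396 to 8843716, plus), Slamf7 on chromosome 1 (171458506 to 171480522, minus) and Epcam on chromosome 17 (87943407 to 87958555, plus). The genes differ much in how far they span: 5353 bases for Xbp1, 64878 for Ell2 and 91410 for Prdm1, with 2247, 3652 and 9237 exonic bases. This bears on the counts, since the deposited counts take in introns.

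The 250 bases before the start of 3 of the genes are shown from RefSeq (build GRCm38.p6), 5′ to 3′ on the gene's strand. Xbp1 and Ell2 are shown because they were called between genotypes in Immature cells, and Irf4 because it is the only one of the 7 with TATAAA in this window. Capitals mark TATAAA in Irf4, TGACGTCA and ACGT in Ell2, and ACGT, the core read by bZIP factors such as XBP1, in Xbp1.
Xbp1, chr11:5520391-5520640, plus strand: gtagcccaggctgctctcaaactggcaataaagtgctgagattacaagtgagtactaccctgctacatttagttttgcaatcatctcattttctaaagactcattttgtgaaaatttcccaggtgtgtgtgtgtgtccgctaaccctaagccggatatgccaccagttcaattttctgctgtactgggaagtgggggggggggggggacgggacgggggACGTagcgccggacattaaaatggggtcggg
Irf4, chr13:30748983-30749232, plus strand: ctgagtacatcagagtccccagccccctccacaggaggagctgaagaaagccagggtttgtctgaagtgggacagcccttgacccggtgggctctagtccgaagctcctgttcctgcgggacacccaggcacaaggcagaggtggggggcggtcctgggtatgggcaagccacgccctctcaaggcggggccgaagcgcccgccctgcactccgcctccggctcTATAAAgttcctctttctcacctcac
Ell2, chr13:75707234-75707483, plus strand: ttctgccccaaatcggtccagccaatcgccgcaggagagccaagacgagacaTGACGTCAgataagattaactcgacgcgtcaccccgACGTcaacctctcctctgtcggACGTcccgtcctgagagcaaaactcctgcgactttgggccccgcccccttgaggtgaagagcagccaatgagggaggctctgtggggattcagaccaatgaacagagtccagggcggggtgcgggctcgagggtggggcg
Irf4 had TATAAA (the TATA box) starting 26 bases before the start, a motif found in 12.4% of 32851 promoter windows searched on both strands. Ell2 had TGACGTCA 198 bases before the start, found in 1.55% of windows, and ACGT at 196, 162 and 140 bases before it. The first of these lies within TGACGTCA. Xbp1 had ACGT 31 bases and Slamf7 had it 50 bases before the start; 26.9% of windows hold it. TGACGTCA and ACGT were added to the search after the sequences were seen. The composite site of an ETS factor with IRF4, the interferon response element, the unfolded protein response element and the ER stress response element were in 2.3%, 2.98%, 0.563% and 0.113% of windows and in none of the windows of the 7 genes.

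Levels are given first as TPM, which is scaled for exonic length and so allows genes to be compared. The TPM tables include immunoglobulin genes, which took 27.1 to 44.9% of TPM in wt Plasma, 49.7 to 62.9% in Plasma labelled 1Mek2 and 4.06 to 24.4% elsewhere. A given number of other transcripts thus reads lower in Plasma TPM. In the count table these genes took at most 0.0175%. In bulk RNA, fewer cells of a type and less RNA per cell cannot be told apart.

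Plasma libraries also carried RNA of other cells, and this holds for every comparison with Plasma. Summed T cell markers (10 genes) came to 2314 to 4218 CPM in wt Plasma and 2120 to 2214 in Plasma labelled 1Mek2, against 56.7 to 160 in wt Follicular. Cd3e was present in all 6 Plasma libraries, at 121 to 317 CPM; Trac was at 0 in all 40 libraries. Neutrophil markers (9 genes) came to 1498 to 8152 CPM over the 6 Plasma libraries, against 0.182 to 1.81 in wt Follicular. Macrophage and monocyte markers (9 genes) came to 1565 to 2522 CPM in wt Plasma and 1110 to 1641 in 1Mek2, against 76.4 to 305 in wt Follicular. Erythroid markers (7 genes) came to 1029 to 1552 CPM in wt Plasma and 826 to 1597 in 1Mek2, against 128 to 227 in wt Follicular. B cell markers (6 genes) were low in Plasma, 446 to 825 CPM in wt and 1804 to 2454 in 1Mek2, against 6807 to 9147 in wt Follicular. Ms4a1, one of them, was at 0 in all 40 libraries. Wild-type Plasma replicate 2 had the highest T cell sum and the lowest B cell sum of the Plasma libraries. ABC libraries carried genes of plasmacytoid dendritic cells: Siglech was at 2528 to 2936 CPM in wt and 3.99 to 2385 in 1Mek2. The part of these cells in the levels of the 7 genes was not tested.

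Irf4 was expressed in every subset. Wild-type Plasma libraries had 46.2, 14.7 and 64.4 TPM, MarginalZone 34.3, 39.4 and 18.8, Follicular 25.6, 23.9, 28.3 and 27.3, Immature 25.4, 15.2 and 17.6, GC 7.73, 7.81, 4.48 and 13.9, and ABC 0.764, 0.815 and 17.5. The ranges of the 4 highest subsets overlapped from each to the next, so their order is not resolved. GC lay wholly below Immature and Follicular. In libraries labelled 1Mek2, Plasma (46.5, 49.8 and 41.5 TPM) lay above all other subsets, the highest of which was a Follicular library at 24.9.

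Prdm1 was a low transcript in all subsets. Among wt subsets its mean was highest in Plasma, at 17.2, 4.35 and 8.24 TPM. Wild-type GC came next by mean, at 3.93, 5.97, 1.6 and 5.63, and overlapped Plasma. Follicular libraries had 0.213, 0.494, 0.320 and 0.0531 TPM in wt. ABC was split, with 0.0330, 0 and 6.43 TPM in the 3 wt libraries. In libraries labelled 1Mek2, Plasma had 8.11, 3.30 and 3.92 TPM and Immature 2.54, 5.75 and 5.07, which overlapped, and both lay above the other 4 subsets.

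Xbp1 was the most abundant of the 7 transcripts in Plasma. Its level there was 1679, 1249 and 1807 TPM in wt and 1324, 1984 and 1972 in 1Mek2. No library of another subset reached it, the highest being 864 TPM in an Immature library labelled 1Mek2. Wild-type GC had 545, 515, 337 and 215 TPM and Immature 428, 223 and 250. ABC, Follicular and MarginalZone together ran from 5.24 to 462 TPM in both genotypes, a wide range that is taken up again further on.

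Ell2 did not peak in Plasma alone. Wild-type GC had 51.1, 22.3, 95.1 and 80.9 TPM and Plasma 92.3, 18.4 and 65.7. Follicular had 9.50, 7.21, 13.1 and 11.8, and ABC 11.1, 13.3 and 6.36. In libraries labelled 1Mek2 Immature came first, at 38.8, 111 and 77.8 TPM, and overlapped GC (18.7 to 111) and Plasma (27.4 to 56.0).

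Sdc1, the gene of the marker used to sort Plasma, had 103, 52.1 and 142 TPM in wt Plasma and 205, 114 and 326 in 1Mek2. Outside Plasma, ABC held the highest values, 0.369, 26.8 and 13 TPM in wt and 22.6, 2.07 and 1.59 in 1Mek2. The Immature cells had been sorted as CD138-, and their libraries had 4.20, 3.88 and 3.95 TPM in wt and 8.07, 14.1 and 19.4 in 1Mek2. MarginalZone libraries had at most 0.360 TPM.

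Slamf7 was highest on average in GC, at 169, 95.6, 98.7 and 70.3 TPM in wt, with Plasma next at 85.2, 60.3 and 68.2; these overlapped. Follicular had 34.1, 22.9, 16.3 and 16.5. Of the wt ABC libraries 1 had 123 TPM and the others 0.976 and 25.5. Epcam was low throughout, with 30.3, 10 and 24 TPM in wt Plasma and 9.14, 17.4 and 14 in wt MarginalZone. GC libraries ranged from 0 to 11.2 TPM over both genotypes.

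**Figure D1:**
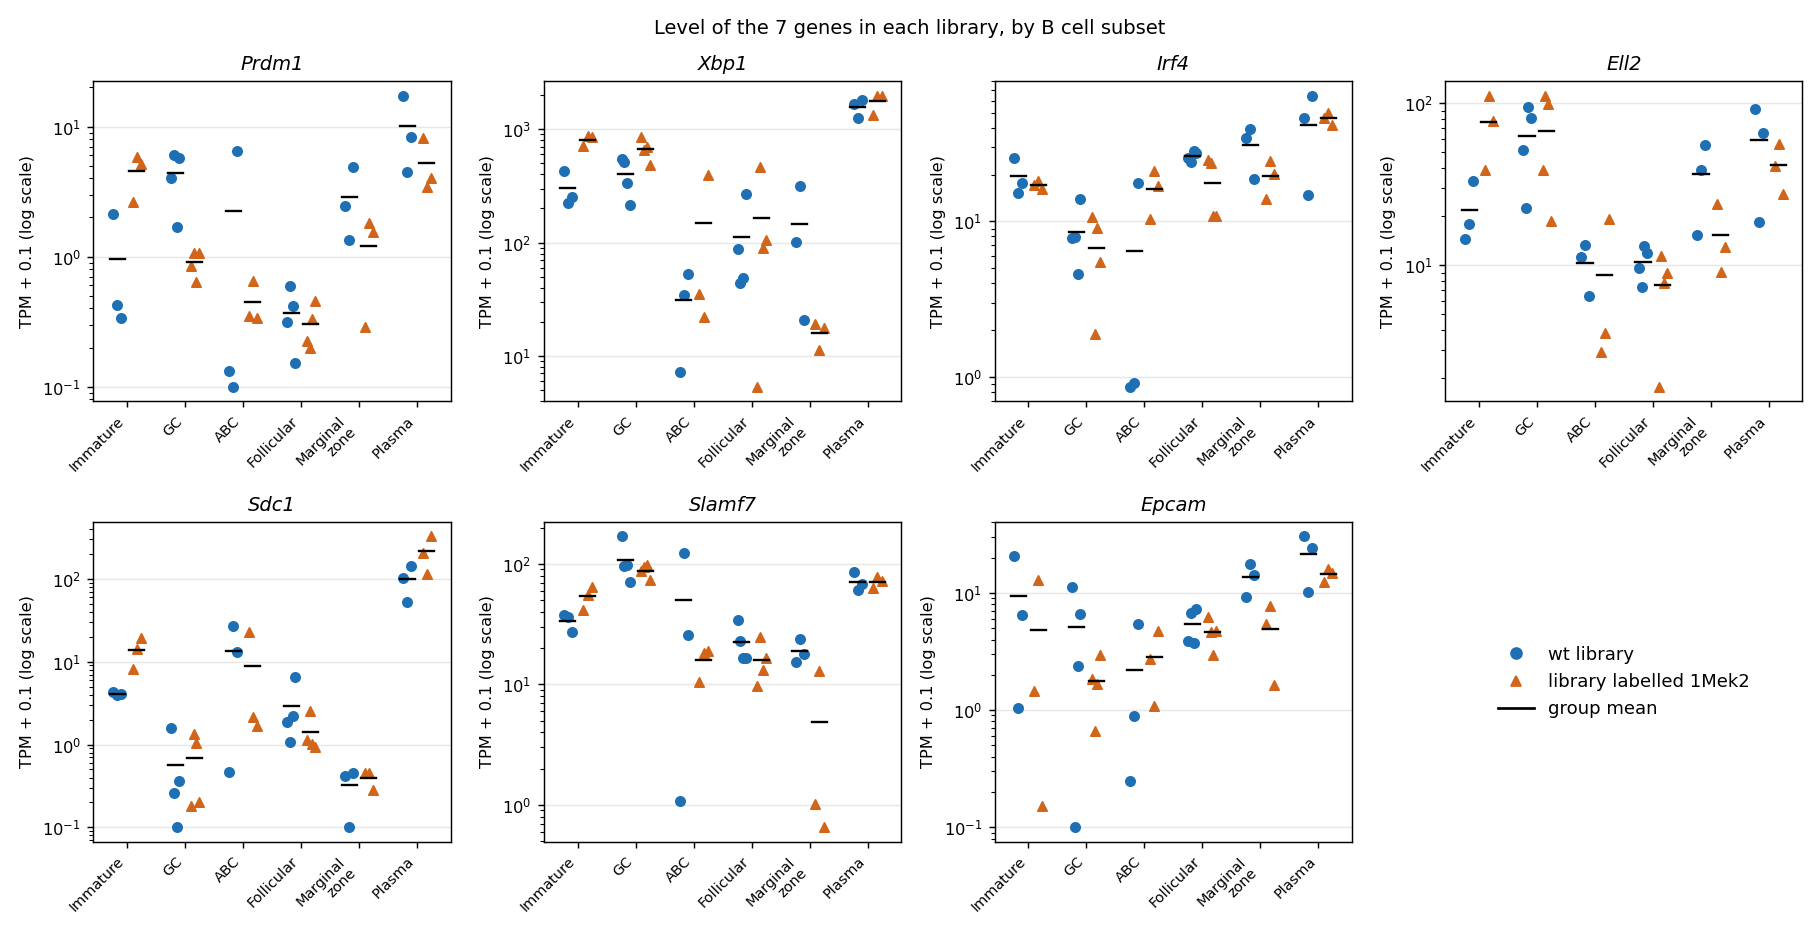
TPM plus 0.1 (log axis) of each of the 7 genes in each library, by subset; circles are wt libraries, triangles libraries labelled 1Mek2 and bars group means. Xbp1 and Sdc1 in Plasma lie above every library of the other subsets, while Slamf7 and Ell2 in Plasma overlap GC.

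All tests that follow used gene-span counts, which include introns, and edgeR's quasi-likelihood test with Benjamini-Hochberg adjustment over all tested genes; a gene is called when the adjusted p is under 0.05. CPM values, counts scaled to library size, are from these counts on 1 common TMM scale. Where Plasma is compared with another subset, Sdc1 is described without a test, since CD138 set the Plasma gate, and 6 genes are counted. Between genotypes all 7 are tested. Shares of all genes are given for calls of the main fit only. They were not counted for groups without overlap, for unadjusted p or for DESeq2.

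Against Follicular cells, all 6 counted genes were higher in wt Plasma, where 12.2% of 15563 tested genes were called higher, 5.53% lower and 17.7% in either direction. Prdm1 had 126, 22.6 and 53.3 CPM in Plasma and 1.34, 2.93, 1.80 and 0.484 in Follicular. The groups lay well apart, and the log2 fold change was 5.54 ± 0.75 (SE; adjusted p = 0.0014). Xbp1 had 2770, 1191 and 2508 CPM in Plasma and 67.6, 36.9, 38.3 and 261 in Follicular. The gap remained wide although 1 Follicular library was high, with a difference of 4.58 ± 0.78 (adjusted p = 0.0039). Epcam rose by 2.56 ± 0.59, Slamf7 by 2.51 ± 0.38 and Ell2 by 2.42 ± 0.50, and these groups did not overlap. The Epcam call was lost in the fit over 12 groups (adjusted p = 0.092), with the replicate block (0.073) and without Plasma replicate 1 (0.05045) or 3 (0.059).

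Irf4 was the smallest of these differences and the only one with overlap. Its Plasma values were 228, 62.4 and 242 CPM and its Follicular values 83.8, 79.1, 72.5 and 69.1, so that Plasma replicate 2 lay under all Follicular libraries. The log2 fold change was 1.41 ± 0.42, with an adjusted p of 0.048. The call was lost with exon reads (adjusted p = 0.11), in the fit over all 12 groups (0.33), with the replicate number as a block (0.13) and with RLE scaling (0.051). Sdc1 had 247, 73.6 and 285 CPM in Plasma and 1.12 to 9.26 in Follicular.

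The same comparison in libraries labelled 1Mek2 called all 6 counted genes higher as well, beside 13.9% of 14822 tested genes. Prdm1 differed by 5.58 ± 0.51, Xbp1 by 4.69 ± 1.07, Slamf7 by 3.26 ± 0.45, Ell2 by 2.88 ± 0.35, Irf4 by 2.54 ± 0.48 and Epcam by 2.46 ± 0.50. No group overlapped. Xbp1 lost its call without the low-count filter (adjusted p = 0.090) and Epcam in the fit over 12 groups (adjusted p = 0.095). Whether these differences were larger than in wt was not tested on its own.

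Against Immature cells, 5 of 6 genes were higher in wt Plasma (7.42% of 19284 genes were called higher and 27.6% in either direction). Prdm1 differed by 3.47 ± 0.65 and Xbp1 by 3.43 ± 0.48, Irf4 by 2.44 ± 0.49, Slamf7 by 2.09 ± 0.38 and Ell2 by 2.06 ± 0.52. Epcam had 48.3, 9.31 and 31.5 CPM in Plasma and 13.7, 1.29 and 3.72 in Immature, which overlapped, and was not called. With exon reads Irf4 (adjusted p = 0.075) and Ell2 (adjusted p = 0.062) were not called and 3 genes remained called. In 1Mek2, 5 of 6 were higher (12.5% of 16523 genes, and 27.9% in either direction), and the one not called was Ell2. Its Immature values of 90.8, 262 and 224 CPM reached into its Plasma values of 326, 447 and 233. With exon reads Prdm1 and Epcam also lost the call in 1Mek2.

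Against GC cells, 4 of 6 genes were higher in wt Plasma (8.36% of 17769 genes): Irf4 by 3.59 ± 0.52, Epcam by 3.14 ± 0.83, Xbp1 by 3.13 ± 0.43 and Prdm1 by 2.04 ± 0.55. Epcam lost its call with exon reads and Prdm1 in the fit over 12 groups. Leaving out GC replicate 1, 2 or 4 or Plasma replicate 1 left 2 calls. Slamf7 and Ell2 were not called. Slamf7 had 470, 194 and 311 CPM in Plasma against 263, 294, 345 and 150 in GC, and Ell2 had 412, 72.6 and 258 against 163, 294, 273 and 120. Both sets of ranges overlapped. In 1Mek2, 5 of 6 were called (16.2% of 16175 genes higher, and 32.4% in either direction). Slamf7 was among them, with 1.06 ± 0.37 and an adjusted p of 0.046. Its call was lost without the filter (0.075), in the fit over 12 groups (0.23), and with the replicate (0.061) or the animal (0.21) as a block. It was also lost without any 1 GC library and without Plasma replicate 2 or 3. By TPM Slamf7 leaned the other way in 1Mek2, at 73.3 to 97.8 in GC and 63.4 to 77.6 in Plasma, with overlap. Ell2 was not called in 1Mek2 either.

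Against MarginalZone cells, 3 of 6 genes were higher in wt Plasma (7.56% of 14608 genes): Xbp1 by 4.39 ± 0.92, Slamf7 by 2.83 ± 0.50 and Prdm1 by 2.68 ± 0.71. Prdm1 was at an adjusted p of 0.039. Its call was lost with exon reads (0.14), in the fit over 12 groups (0.074) and with the replicate block (0.11). It was also lost without any 1 MarginalZone library and without Plasma replicate 1 (0.19) or 3 (0.10). Without MarginalZone replicate 1 only 1 of the 3 genes was called. In 1Mek2, 4 of 6 were called (19.3% of 13929 genes), with Xbp1 at 8.0 ± 0.59, Slamf7 at 5.39 ± 0.94, Prdm1 at 3.37 ± 0.78 and Ell2 at 1.6 ± 0.44. The Ell2 call was lost in the fit over 12 groups (adjusted p = 0.053) and without MarginalZone replicate 3 (0.070) or Plasma replicate 1 (0.061) or 2 (0.092). The Slamf7 values of MarginalZone cells labelled 1Mek2 were 5.93, 37.7 and 2.84 CPM, against 366, 880 and 529 in Plasma. Irf4 and Epcam did not overlap there but were not called, with 1.43 ± 0.61 (adjusted p = 0.099) and 1.97 ± 0.78 (adjusted p = 0.080).

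Against ABC cells, only Xbp1 was called in wt Plasma (9.37% of 13913 genes were called higher, 9.09% lower and 18.5% in either direction), by 6.11 ± 0.87. Its wt ABC values were 5.49, 50.8 and 36.6 CPM. Prdm1 and Epcam did not overlap either and were not called, with 3.39 ± 1.53 and 4.28 ± 1.5. Both were called when ABC replicate 3, which had 19.1 CPM of Prdm1 beside 1.18 and 0.293 in the others, was left out. In 1Mek2 all 6 genes were called (3.89% of 14444 genes), with adjusted p from 0.027 to 0.047. Leaving out 1 library at a time gave between 0 and 6 calls there. No gene was called without ABC replicate 2 or without any 1 of the 3 Plasma libraries, and 1 without ABC replicate 1.

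**Figure D2:**
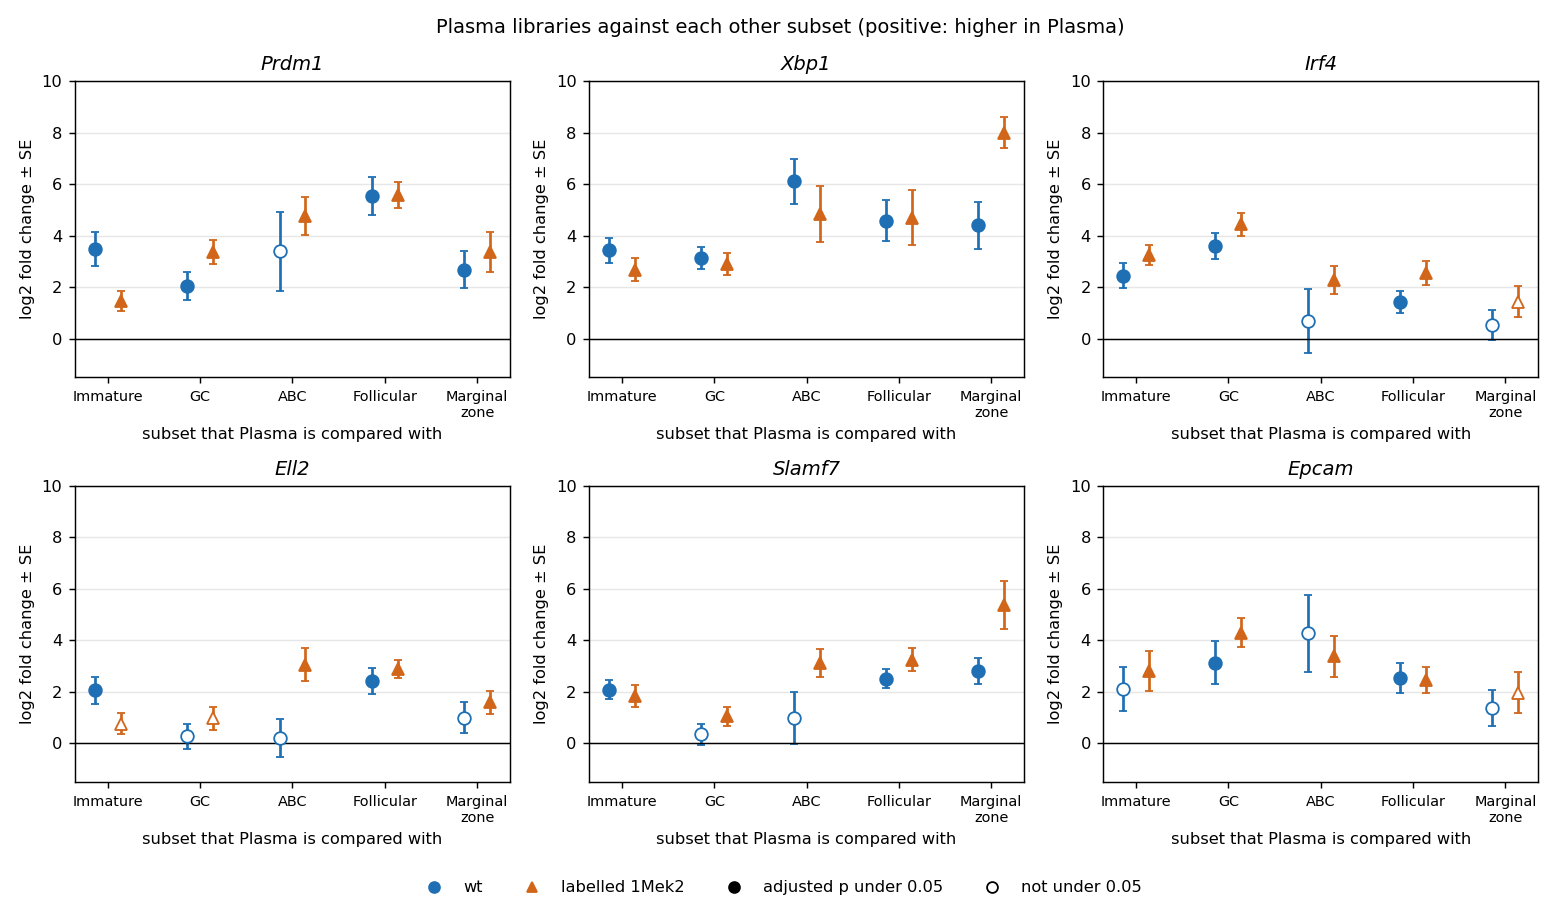
Log2 fold change with its standard error of 6 genes in Plasma against each of the 5 other subsets, in wt (circles) and 1Mek2 (triangles); filled symbols passed the adjusted threshold. Xbp1 is filled in all 10 comparisons, and Slamf7 lies lowest against GC in both genotypes.

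Genes that act with these regulators moved in wt Plasma against Follicular as follows. Of 17 genes that XBP1 is known to raise in the secretory pathway, 10 were called higher and none lower, with a median log2 fold change of 2.53 against -0.01 over all tested genes. The largest were Dnajc3 (3.51 ± 0.34), an ER co-chaperone, Sec24d (3.04 ± 0.49), a coat protein of ER exit vesicles, and Sdf2l1 (2.87 ± 0.51), an ER chaperone partner. Of 16 companions of the plasma cell program, 9 were higher and 1 lower. Jchain (10.30 ± 0.90), the joining chain of secreted IgM and IgA, went from a mean of 8.28 CPM in Follicular to 10451 in Plasma on the scale of that comparison. Tnfrsf17 (7.08 ± 1.16), the survival receptor BCMA, and Cd28 (6.86 ± 1.10), a receptor of T cells and plasma cells, came next.

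Of 16 B cell genes that BLIMP-1 is known to lower, 12 were called lower and none higher, with a median of -2.48. Fcer2a (CD23) fell by 8.52 ± 1.26, Pax5, the factor that keeps B cell identity, by 6.86 ± 0.73 and Cr2 (CD21) by 6.08 ± 0.41. CD21 and CD23 were part of the Follicular gate. Of 11 partners and relatives of ELL2, 1 rose and 3 fell. Eaf2, which binds ELL proteins, rose by 4.76 ± 0.57, while Ell3 fell by 4.46 ± 0.90 and Aff1, a scaffold of the super elongation complex, by 1.95 ± 0.57. Of the other IRF genes, Irf8 and Irf5 fell by 2.11 ± 0.34 and 1.98 ± 0.48. Of 10 SLAM receptors and adaptors 3 rose, led by Sh2d1a (6.86 ± 0.59), the adaptor SAP of T and NK cells, Slamf8 (6.24 ± 1.35) and Cd244a (2.83 ± 0.41), an NK cell receptor. T cell and NK cell markers were higher in the same libraries, with NK cell sums of 707 to 1155 CPM in wt Plasma and 6.58 to 24.4 in wt Follicular. Neither of the 2 tested syndecans was called, and Zfp683, the relative of Prdm1, was not tested for low counts.

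In libraries labelled 1Mek2 the comparison with Follicular gave 15 of 17 XBP1 targets higher, 10 of 16 companions higher and 13 of 16 genes lowered by BLIMP-1 lower. Their medians were 3.04, 2.86 and -4.04, against -0.09 over all tested genes, of which 13.9% were called higher and 5.95% lower. Epithelial markers were read beside Epcam. Of 6 such markers, summed levels were 11.1 to 25.2 CPM in wt Plasma and 8.65 to 13.3 in 1Mek2, against 0.212 to 0.624 in wt Follicular. Krt18 reached 15.7 CPM in wt Plasma, Cldn7 reached 9.04, and Krt19 was at 0 in all 3 wt Plasma libraries. Wild-type ABC had the highest sums, 45.5 to 142 CPM, nearly all from Cdh1 (45.3 to 142 CPM), while its Epcam was low, at 0.196 to 4.13 CPM. Their part in the Epcam level was not tested.

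Among the other wt subsets, GC differed most from Follicular: 4 of 7 genes were called, 3 higher and 1 lower (25.1% of 15638 genes were called in either direction). Prdm1 was higher by 3.61 ± 0.70, with 16.9, 19.5, 8.18 and 20.8 CPM in GC. Slamf7 was higher by 2.24 ± 0.34 and Ell2 by 2.21 ± 0.32. Irf4 was lower by a log2 fold change of -2.07 ± 0.39, with 7.13, 20.5, 11.4 and 21.3 CPM against 69.1 to 83.8. None of the 4 overlapped, and each kept its call in the alternatives run. The wt GC and wt Immature libraries share no animal with the wt Follicular libraries. In these comparisons subset and animal therefore cannot be told apart. Against Follicular cells, then, the GC transcripts of BLIMP-1 and IRF4 moved in opposite directions. A list of 10 long neuronal genes, read as a sign of background reads, summed to 49.4 to 1004 CPM in wt GC and 15.7 to 35.3 in wt Follicular; its part in these differences was not tested.

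Immature cells gave 2 calls of 7 (39.4% of 20144 genes, 32.3% higher and 7.15% lower), a share no higher than that of all genes. Prdm1 was higher by 2.21 ± 0.71 (adjusted p = 0.024), at 8.19, 5.84 and 2.61 CPM, and Irf4 lower by a log2 fold change of -0.90 ± 0.30 (adjusted p = 0.029), at 40.5, 25.4 and 24.2 CPM. Neither was called with exon reads (adjusted p = 0.31 and 0.41). The long neuronal genes summed to 424 to 1044 CPM in wt Immature, and their part was not tested. MarginalZone cells gave no call of 7 (0.34% of 14699 genes, 0.272% higher and 0.068% lower). There 5 genes did not overlap Follicular, but the share of all tested genes without overlap was not counted. Prdm1 at 9.69, 8.47 and 16.7 CPM was higher by 2.84 ± 0.69 (adjusted p = 0.17) and Ell2 at 96.7, 159 and 155 CPM by 1.38 ± 0.34 (adjusted p = 0.17). Irf4 was at 0.85 ± 0.37, Epcam at 1.15 ± 0.54 and Sdc1, at or under 0.405 CPM, at -3.98 ± 1.37. DESeq2 called 3 of them (Prdm1, Ell2 and Sdc1). At an unadjusted p under 0.05, 4 were past the threshold in edgeR. The shares of all tested genes by these measures were not counted either, so the counts have no baseline.

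ABC cells gave 1 call of 7 (20.2% of 14357 genes, 11.9% higher and 8.3% lower). Ell2 was higher by 2.19 ± 0.61 (adjusted p = 0.031), at 190, 155 and 277 CPM against 37.4 to 60.6 in Follicular. On exon reads the difference had the same direction but was smaller and not called. Ell2 had 48.4, 35.0 and 10.5 exon CPM in wt ABC, against 11.7 to 18.8 in wt Follicular. Replicates 1 and 2 of ABC thus lay above all wt Follicular libraries and replicate 3 below them. The log2 fold change on exon reads was 1.31 ± 0.89, with an adjusted p of 0.28. The Ell2 TPM of 6.36 to 13.3 in wt ABC overlapped Follicular at 7.21 to 13.1. Only 6.87, 9.38 and 2.41% as many reads fell on exons of Ell2 as on its whole span in these 3 libraries, against 20.5 to 30.7% in wt Follicular. A similar gap was seen for Irf4 in wt ABC replicate 2, with 2728 gene-span counts, of which exon reads made 0.440%. The long neuronal genes summed to 374 to 2830 CPM in wt ABC, 13.6 to 404 in ABC labelled 1Mek2 and 15.7 to 35.3 in wt Follicular; their part in the Ell2 counts was not tested. The call also fell with the animal as a block (adjusted p = 0.16) and without the low-count filter (0.078). It fell without any 1 wt Follicular library, at 0.10, 0.11, 0.10 and 0.055 without replicate 1, 2, 3 or 4. Replicate 4 is the Follicular library that stands apart.

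**Figure D3:**
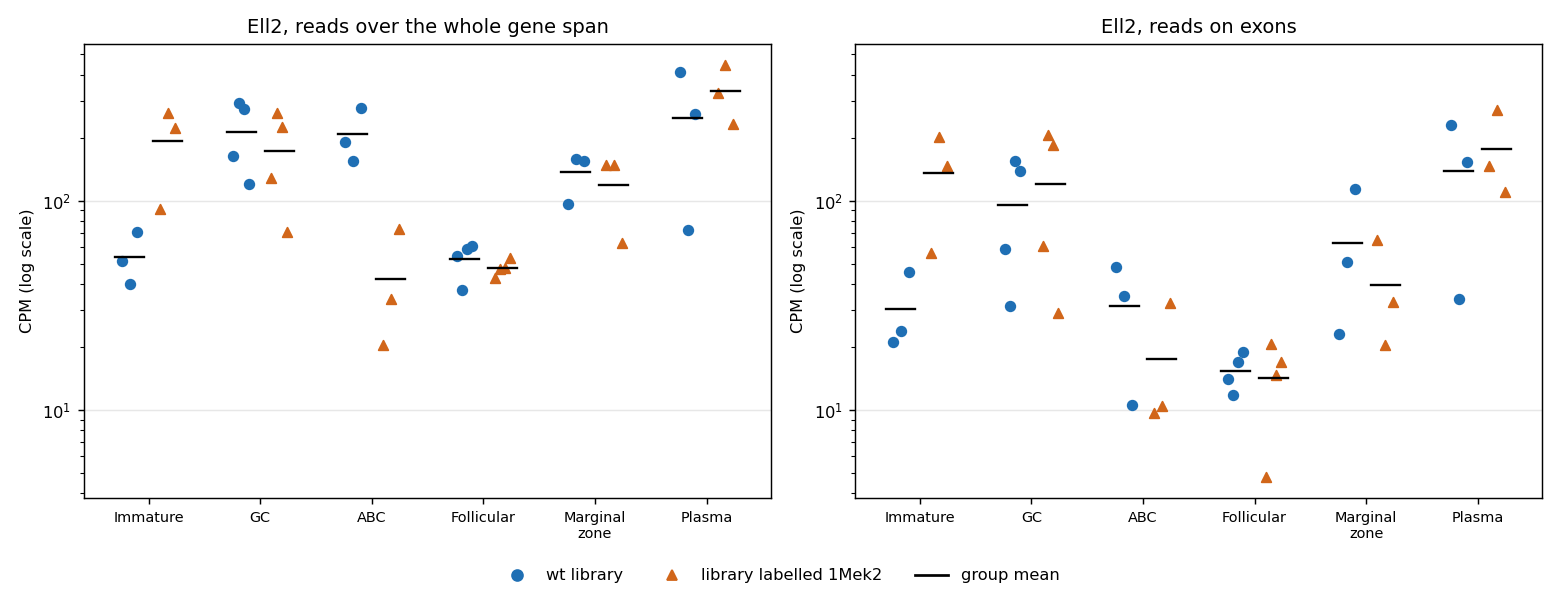
Ell2 in CPM (log axis) by subset, counted over the whole gene span (left) and on exons (right); circles are wt libraries, triangles libraries labelled 1Mek2 and bars group means. Wild-type ABC lies at 155 to 277 CPM on the left and at 10.5 to 48.4 on the right.

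Between genotypes, the clearest difference was in Immature cells, where 2 of 7 genes were higher in libraries labelled 1Mek2 and none lower (0.81% of 21115 genes were called higher, 0.123% lower and 0.933% in either direction). Xbp1 had 299, 108 and 147 CPM in wt and 446, 933 and 754 in 1Mek2. The groups did not overlap, and the log2 fold change was 1.99 ± 0.39, a 3.97-fold difference (adjusted p = 0.0018). Ell2 had 51.6, 39.9 and 70.5 CPM in wt and 90.8, 262 and 224 in 1Mek2. These did not overlap either, with 1.90 ± 0.40, a 3.72-fold difference (adjusted p = 0.0029).

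Prdm1, Sdc1 and Slamf7 leaned the same way in Immature cells without passing the threshold. Prdm1 had 8.19, 5.84 and 2.61 CPM in wt and 13.9, 30.2 and 20.8 in 1Mek2, with 2.03 ± 0.61 and an adjusted p of 0.093. Sdc1 had 4.46, 3.26 and 3.69 CPM in wt and 7.42, 22.0 and 25.2 in 1Mek2, with 2.31 ± 0.67 and an adjusted p of 0.069. Neither pair of groups overlapped. Slamf7 overlapped on the scale of this comparison, with an adjusted p of 0.10. The median log2 fold change of the 7 genes was 1.90 against -0.17 over all tested genes. Irf4 had 24.2 to 40.5 CPM in wt and 25.5 to 48.5 in 1Mek2, which overlapped in part. Epcam had 1.29 to 13.7 CPM in wt and 1.42 to 12.5 in 1Mek2, which also overlapped.

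The Immature result rests on few libraries. Without 1Mek2 replicate 3, the highest for Xbp1 and Ell2, neither was called (adjusted p = 0.22 and 0.23), and without wt replicate 3 Xbp1 was not (adjusted p = 0.060). Without wt replicate 1 or without 1Mek2 replicate 2, 5 genes were called. DESeq2 called 4 (Prdm1, Xbp1, Sdc1 and Ell2), exon reads 1 (Xbp1), and the fit over all 12 groups none, with log2 fold changes of 1.94 for Xbp1 and 1.83 for Ell2. The shares of all tested genes called in these settings were not counted, so these counts have no baseline.

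Genes of the same program in Immature cells were read from the fixed lists. Of 17 XBP1 targets 4 were higher and none lower: Sdf2l1 by 1.83 ± 0.40, Dnajc3 by 1.79 ± 0.45, Manf, a secreted ER stress factor, by 1.61 ± 0.39 and Sec61a1, a subunit of the ER translocon, by 1.53 ± 0.39. Of 16 companions 2 were higher, Derl3 by 2.59 ± 0.64 and Creld2 by 1.98 ± 0.40, both ER proteins. Of the ELL2 partners Eaf2 was higher by 2.7 ± 0.39. The XBP1 target median was 1.12 and that of the companions 1.06. None of the 16 genes lowered by BLIMP-1 was called, and their median was -0.04. T cell markers summed to 52.9 to 92.6 CPM in wt Immature and 94.6 to 176 in 1Mek2, and 1 of the 1Mek2 libraries had 310 CPM of neutrophil markers where the others had 0.432 and 2.83. The long neuronal genes summed to 424 to 1044 CPM in wt Immature and 184 to 619 in 1Mek2. Immunoglobulin genes took 11.8 to 13.6% of TPM in wt Immature and 13.5 to 24.4% in 1Mek2, against 27.1 to 44.9% in wt Plasma. The part of these cells and reads, or of plasma cells among the Immature cells, was not tested.

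In GC cells no gene was called (0.054% of 16681 genes, 0.018% higher and 0.036% lower); at an unadjusted p under 0.05 edgeR gave 2, and DESeq2 called 0. Xbp1 had 230, 331, 328 and 135 CPM in wt and 688, 695, 753 and 373 in 1Mek2. All 4 libraries labelled 1Mek2 lay above all 4 wt libraries, with a log2 fold change of 1.28 ± 0.33 and an adjusted p of 0.31. Its TPM, at 215 to 545 against 485 to 862, overlapped. Prdm1 pointed the other way in GC, at 8.18 to 20.8 CPM in wt and 2.87 to 10.7 in 1Mek2, which overlapped, with a log2 fold change of -1.48 ± 0.61 and an adjusted p of 0.41. By TPM (1.6 to 5.97 against 0.534 to 0.975) and by exon reads (6.55 to 24.4 against 2.5 to 4.54 CPM) its groups did not overlap, and the adjusted p on exon reads was 0.45.

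In Plasma no gene was called (0.0605% of 14878 genes, 0.0202% higher and 0.0403% lower); at an unadjusted p under 0.05 edgeR gave 1. Sdc1 had 247, 73.6 and 285 CPM in wt and 533, 578 and 1090 in 1Mek2, without overlap, at 1.86 ± 0.55 (adjusted p = 0.16). DESeq2 and the fit without a low-count filter called it (adjusted p = 0.018 and 0.031). Cells of both genotypes had been sorted on CD138. Irf4 had 228, 62.4 and 242 CPM in wt and 269, 479 and 298 in 1Mek2, also without overlap, at 0.98 ± 0.53 (adjusted p = 0.43). By TPM both overlapped, Sdc1 at 52.1 to 142 and 114 to 326, and Irf4 at 14.7 to 64.4 and 41.5 to 49.8. B cell marker sums in 1Mek2 Plasma were above those of wt Plasma, as given above, and their part in these differences was not tested.

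No gene was called in ABC (0% of 12583 genes), Follicular (0% of 14128) or MarginalZone cells (0% of 12907), by edgeR or DESeq2. At an unadjusted p under 0.05 edgeR gave 0, 0 and 1. In ABC, Ell2 was lower in 1Mek2 without overlap, at 20.4, 33.9 and 72.9 CPM against 155 to 277, with a log2 fold change of -2.26 ± 1.11 and an adjusted p of 0.26; exon reads, at 9.69, 10.4 and 32.6 CPM against 48.4, 35.0 and 10.5, overlapped. In MarginalZone cells, Slamf7 had 39.6, 65.2 and 48.7 CPM in wt and 5.93, 37.7 and 2.84 in 1Mek2, a difference of -1.76 ± 0.95 with an adjusted p of 0.61. Xbp1 had 72.1, 258 and 17.1 CPM in wt and 22.9, 11.6 and 22.8 in 1Mek2, with overlap. Its log2 fold change of -2.60 ± 0.90 (adjusted p = 0.52) was opposite in sign to those in Immature and GC cells; it was called without the low-count filter (adjusted p = 0.035) and was -1.19 without wt replicate 2, which stands apart. Sdc1 was not tested in MarginalZone cells because its counts were too low. In Follicular cells all 7 genes overlapped.

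Averaged over the 6 subsets, none of the 7 genes was called (6% of 25181 genes were, by limma with the animal as a random block). Sdc1 stood at 0.95 ± 0.53 (adjusted p = 0.33) and Xbp1 at 0.80 ± 0.41 (adjusted p = 0.28). In the test of whether the genotype difference varied over the subsets, only Ell2 of the 7 was called. Its adjusted interaction p was 0.030 beside 2% of 25181 genes called, by edgeR. That fit had no term for the animal, although animals gave libraries to several subsets. Xbp1 had an adjusted interaction p of 0.19. The Ell2 interaction took in the higher Immature and the lower ABC values, and with exon reads its adjusted p was 0.36.

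**Figure D4:**
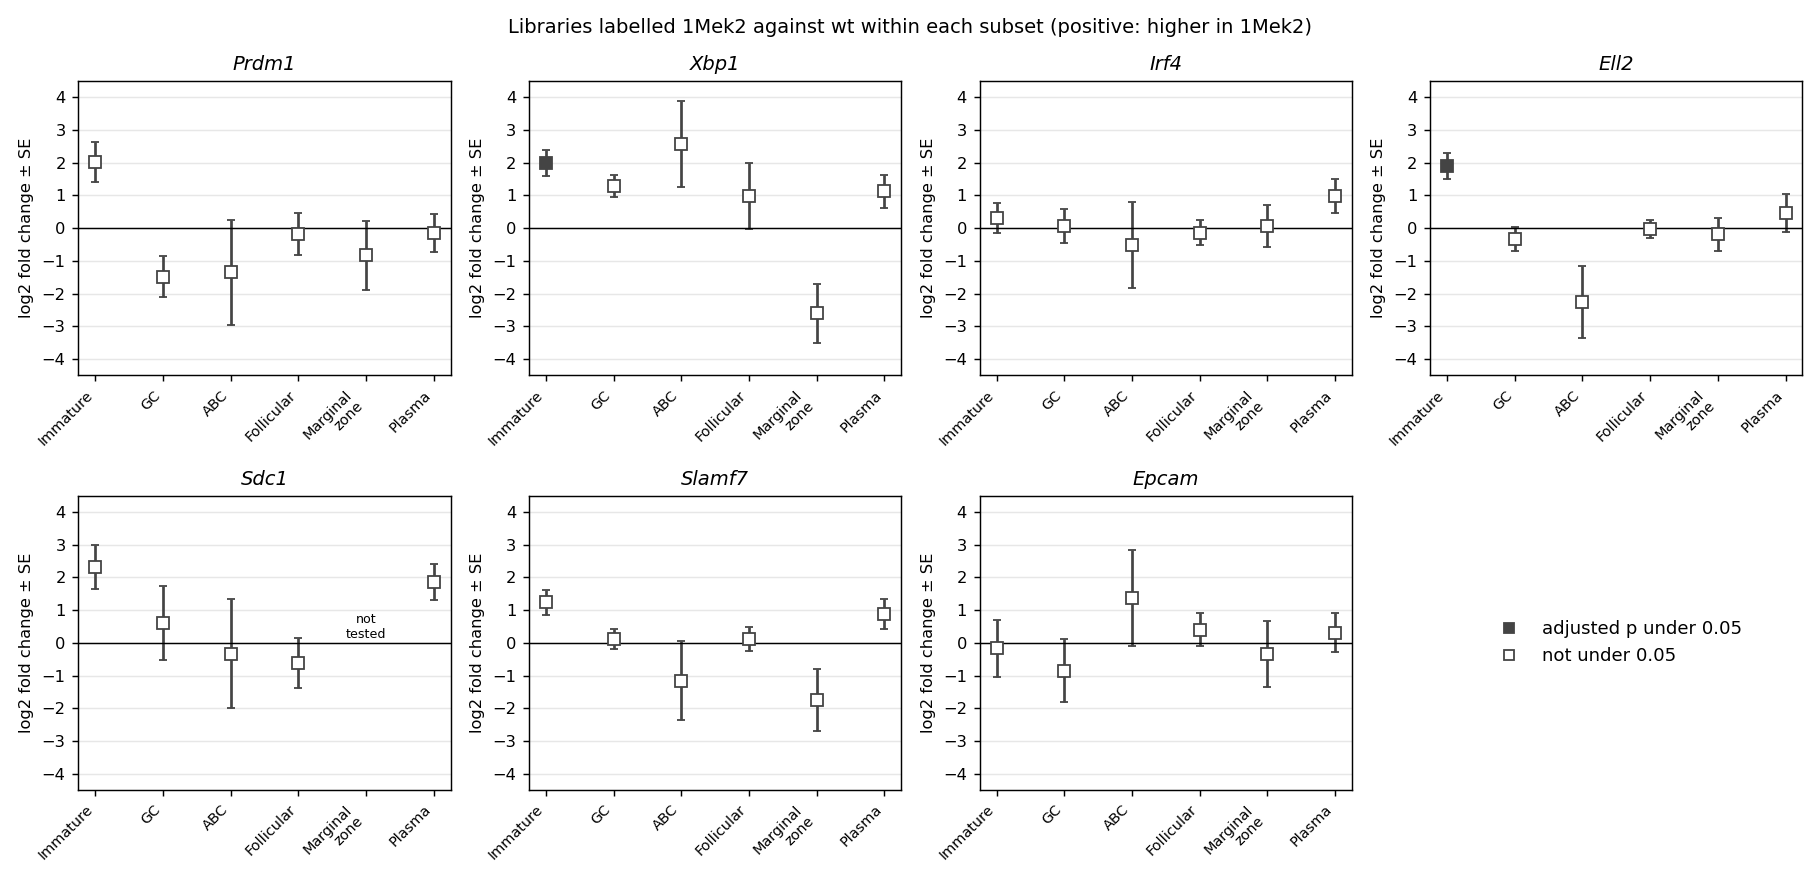
Log2 fold change with its standard error of libraries labelled 1Mek2 against wt, for 7 genes in 6 subsets; filled symbols passed the adjusted threshold. Xbp1 and Ell2 in Immature cells are the 2 filled symbols.

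Within ABC, Follicular and MarginalZone cells, a few libraries had much more Xbp1 than the rest. A component was drawn from the Follicular, MarginalZone and Plasma libraries, after taking the median of each subset away and leaving the 7 genes out, and the ABC libraries were placed on it. It held 28.3% of the variance of 9385 genes. The wt Follicular library 4, Follicular library 2 labelled 1Mek2, wt MarginalZone library 2 and ABC library 3 labelled 1Mek2 scored 86.8 to 115, above a gap; the next library scored 55.7. They come from both genotypes and from 4 animals. The animals of this MarginalZone library and of Follicular library 2 labelled 1Mek2 also gave the highest Plasma scores, 55.7 and 46.4. The animals of the wt Follicular and the ABC library gave no Plasma library. The part of the animal was not tested. Xbp1 in the 4 libraries was 261, 556, 258 and 425 CPM. The other libraries held less: ABC had 5.49 to 58.8 CPM, MarginalZone 11.6 to 72.1 and Follicular 9.33 to 106. Markers of conventional dendritic cells (8 genes) were also high in 3 of the 4: 755 CPM in the wt Follicular library (other wt 129 to 184), 589 in the Follicular library labelled 1Mek2 (others 130 to 251) and 229 in the MarginalZone library (other wt 55.6 and 63.3). The ABC library had 534 CPM, within the 511 to 1410 of its group. Their part was not tested. The libraries were set apart by their own values, so this is a description with no test.

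Without these 4 libraries, Plasma stayed above Follicular for all genes called before in 1Mek2, and Irf4 in wt moved to an adjusted p of 0.056. Prdm1 in wt Plasma against MarginalZone moved to 0.072 and in wt Immature against Follicular to 0.093. Each of these calls was also lost without other single wt libraries. Irf4 moved to an adjusted p of 0.10, 0.11 and 0.13 without Follicular replicate 1, 2 or 3. Prdm1 against MarginalZone moved to 0.13 and 0.064 without MarginalZone replicate 1 or 3. Prdm1 in Immature against Follicular moved to 0.067, 0.055 and 0.061 without Follicular replicate 1, 2 or 3. The genotype counts in ABC, Follicular and MarginalZone cells stayed at 0. When the component was drawn from exon reads, 8 libraries lay on that side, among them 3 Plasma libraries.

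**Figure D5:**
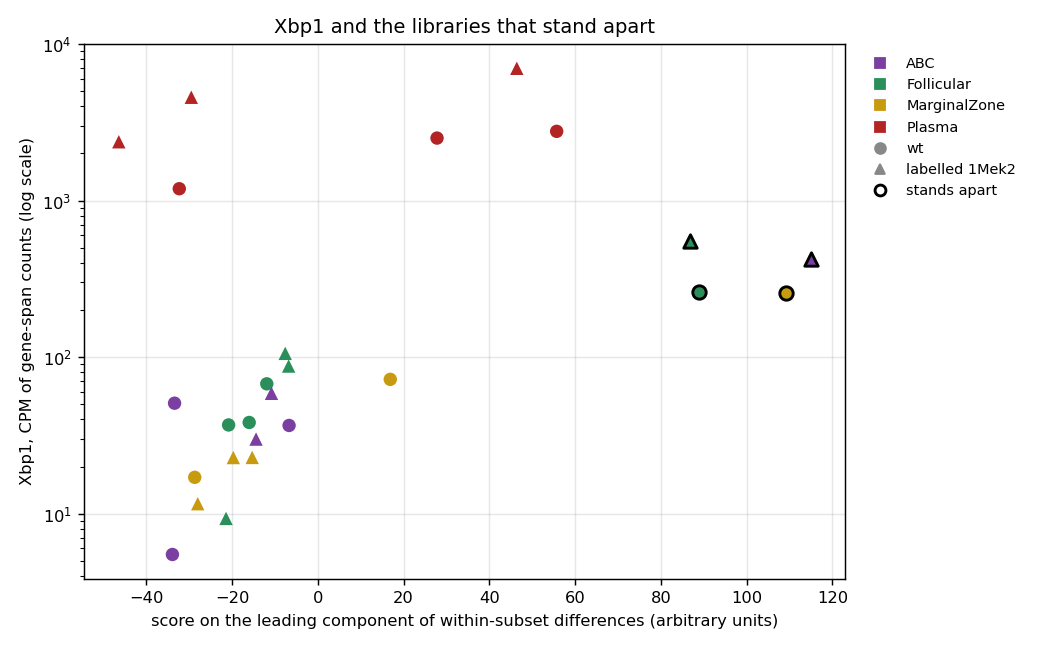
Xbp1 in CPM (log axis) against the score of each ABC, Follicular, MarginalZone and Plasma library on the leading component of within-subset differences; circles are wt, triangles 1Mek2, and outlined symbols the 4 libraries that stand apart. The outlined libraries lie between 258 and 556 CPM, between the other libraries of their subsets and Plasma.

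The genes whose log2(CPM + 1) over the 40 libraries was most like each of the 7 were read from 25181 genes as a description, since libraries share subsets and animals. Xbp1 was most like Stard3nl (Pearson r = 0.909), Ssr1 (0.908), a subunit of the ER translocon-associated complex, and Dnajb11 (0.907), an ER co-chaperone. Slamf7 was most like Herpud1 (0.838), a gene of ER-associated degradation, Gm40446 (0.811) and Anxa2 (0.808). Irf4 was most like Entpd1 (0.881), Glt8d1 (0.806) and Slc3a2 (0.797), and Prdm1 most like Ankrd55 (0.818), Gm44764 (0.804) and Pkd2l2 (0.799). Sdc1 was most like Gm16407 (0.868), Trib1 (0.865) and Eef1akmt3 (0.864), and Epcam most like Il6st (0.809), Gpx3 (0.791) and Ccpg1 (0.747). Ell2 had the weakest matches, Fut8 (0.737), Rap1a (0.730) and Edem1 (0.721), the last of which acts in the disposal of misfolded ER proteins.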

How the data were processed

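Polyadenylated RNA of sorted splenic B cells was sequenced with reads of 100 bp. Per the submitters' processing notes the genome build was GRCm39, and the tools were featureCounts 2.0.3, Trim Galore 0.6.5 and STAR 2.7.11a, with no roles given. The authors deposited raw counts for 50763 genes and TPM for 41075 entries. Per the file headers, 50760 genes have a single interval that covers introns as well. Exon reads were recovered from TPM and exonic length as whole numbers for 99.5 to 100% of values per library (tolerance 0.02). Exon reads per library ran from 7897848 to 29204625 and gene-span counts from 7883989 to 34925667; precision from depth covers counting error only. Within a group the libraries carry different animal numbers in their names.

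Groups came from the labels. Animals were read from library names; same-numbered wt and 1Mek2 libraries did not deviate together (r from -0.658 to 0.378 within subsets), so replicate numbers pair no genotypes, while an animal can give libraries to several subsets. Comparisons of 2 groups used edgeR 4.0.16 (TMM, filterByExpr, robust quasi-likelihood F test, Benjamini-Hochberg at 0.05, two-sided). The average genotype effect used limma 3.58.1 (voom, animal as random block), and the interaction an edgeR fit of 12 groups. DESeq2 1.42.0, RLE scaling, no filter, exon reads, a fit over 12 groups, blocks and leaving out each library were alternatives. On simulated data the edgeR test recovered 83% of genes changed 8-fold and 5% of those changed 2-fold in the Immature comparison (21115 genes), 77% and 5% in GC (16681 genes), and 74% and 0% in wt Plasma against Follicular (15563 genes).

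The 7 genes and the gene lists were chosen with earlier results of these data known. Named list genes were the called genes with the largest change in wt Plasma against Follicular with a mean of at least 5 CPM, up to 3 per list; list genes named in Immature cells were all those called there. A result that this rule would name is not reported here.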

Additional observations from a re-analysis of the deposited data

Results flagged for a closer look

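In groups of 4 libraries, 28 gene and group combinations were checked for a library far from the other 3, and 4 had one; chance alone flags about 1 in 20. Xbp1 in GC cells labelled 1Mek2 had its lowest library at 373 CPM, where the others had 688 to 753. Xbp1 in wt Follicular cells had its highest at 261 CPM, and Sdc1 had its highest at 9.26 CPM in the same library, one of the 4 that stand apart. Epcam in Follicular cells labelled 1Mek2 had its highest library at 12.2 CPM, where the others had 4.73 to 5.92.

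The genotype difference of Ell2 differed between subsets by the interaction test, with an adjusted p of 0.030 (edgeR, without a term for the animal). It was 1.90 ± 0.40 in Immature and -2.26 ± 1.11 in ABC cells as log2 fold changes, and the exon reads of the ABC groups overlapped.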

How the results depend on the processing

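Values here are the number of the 7 genes called (6 where Plasma is compared with another subset). The share of all tested genes called was not counted for the alternatives. The genotype comparison of Immature cells, with 2, gave 4 with DESeq2, 1 with exon reads and 0 in 1 fit over 12 groups, and from 0 to 5 when 1 library was left out. Wild-type Immature against Follicular, with 2, gave 1 without the low-count filter, 0 with exon reads, 0 in the fit over 12 groups and from 0 to 2 when 1 library was left out. Wild-type ABC against Follicular, with 1, gave 2 with DESeq2, 2 in the fit over 12 groups, and 0 without the filter, with exon reads or without the libraries that stand apart, and from 0 to 2 when 1 library was left out. With 0 before, the genotype comparison gave 1 in ABC in the fit over 12 groups (Ell2), 1 in MarginalZone without the filter (Xbp1), and 1 in Plasma with DESeq2 and without the filter (Sdc1); MarginalZone against Follicular gave 3 with DESeq2. Plasma against Immature, with 5, gave 3 with exon reads in both genotypes. Wild-type Plasma against ABC, with 1, gave 3 with DESeq2 and in the fit over 12 groups. The Ell2 interaction, with 1, gave 0 with exon reads. Leaving out 1 library gave 2 to 4 in wt Plasma against GC, 1 to 3 against ABC and 1 to 3 against MarginalZone, and in 1Mek2 3 to 5 against Immature and 0 to 6 against ABC. The cause of these changes was not tested, except that fewer libraries enter when 1 is left out. Over 73 gene results with 996 alternatives, 838 kept direction and side of the threshold, 129 lost and 29 gained the call, and 0 turned direction. Most of the 73 were chosen for a call or for groups without overlap, and the interaction has no direction. The 0 was thus largely set by that choice. Of 923 alternatives of the 70 other gene results, which were not called, 94 turned direction and 24 passed the threshold. These results were comparisons of groups that overlapped, averages over the subsets and interactions, the last without a direction.

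Replicate numbers do not pair the genotypes. With the replicate block, the Immature genotype count was 4, wt Immature against Follicular 4 and wt ABC against Follicular 0. With the animal as replicate block, wt ABC against Follicular gave 0, Slamf7 lost its call in 1Mek2 Plasma against GC (0.91, adjusted p = 0.21, edgeR) and Irf4 gained one in 1Mek2 Plasma against MarginalZone (adjusted p under 0.05, edgeR). Simulated 2-fold changes were mostly missed at these library numbers.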
